A study of Homo sapiens with 4 samples.

Results

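G1 cyclins, cyclin-dependent kinases (CDKs) and CDK inhibitors were followed in PANC-1 cells after knockdown of SIRT1, an NAD-dependent protein deacetylase. The 10 genes were taken by symbol, and all 10 were among the 16878 genes of each table: the D cyclins CCND1 and CCND3, the E cyclins CCNE1 and CCNE2, the kinases CDK2, CDK4 and CDK6, the inhibitors CDKN1A and CDKN1B, and the retinoblastoma gene RB1. PANC-1 is an established human pancreatic ductal cancer line. RNA was sequenced from 2 Control libraries and 2 libraries of cells given siRNA against SIRT1 (siSIRT1), 48 h after transfection. What the Control cells received is not stated in the labels, and each group is the same parental line. The labels list the libraries as replicates without saying whether they came from separate cultures, so the p-values measure the spread between these libraries, which may be technical. The comparison asked whether the genes that govern the G1 to S step moved together with the genes of S phase.

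In G1, D cyclins pair with CDK4 or CDK6 and begin to phosphorylate the RB1 protein, and E cyclins with CDK2 complete that step. Phosphorylated RB1 releases E2F factors, which switch on the enzymes of DNA replication. INK4 inhibitors block CDK4 and CDK6, while the CIP/KIP inhibitors encoded by CDKN1A (p21), CDKN1B (p27) and CDKN1C (p57) bind cyclin-CDK complexes and restrain CDK2 above all. Loss of the INK4 gene CDKN2A is common in pancreatic cancer.

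The sequence that the study lists for siSIRT1 is 19 bases long and is shown because it defines the treatment, and because its seed (bases 2 to 8 of the antisense strand) can pair with other transcripts. Capitals mark that seed in the antisense strand and its complement in the sense strand.
siSIRT1 sense strand: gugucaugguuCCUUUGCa
siSIRT1 antisense strand: uGCAAAGGaaccaugacac
The labels do not say which siRNA was used for these libraries. The DNA site matching the seed, CCTTTGC, was found in the 3′ UTR of 1 of the 10 G1 genes, CCND1, at 2 places, against 15.6% of 11912 tested genes with an annotated 3′ UTR. The median log2 fold change was 0.06 over the genes with a site and 0.08 over those without. The site for the seed of the sense strand, CATGACA, lay in none of the 10 genes and in 10.2% of the tested genes with an annotated 3′ UTR.

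SIRT1 itself was at 10.46 and 10.25 FPKM under Control against 1.8 and 2.05 FPKM under siSIRT1 (fragments per kilobase of transcript, scaled to library size). In siSIRT1, 18.6% of the Control level remained, with a log2 fold change of -1.96 ± 0.11 (SE) and a limma adjusted p of 1.33e-05. Depths estimated from the values ran from 8690000 to 9120000 reads over the 4 libraries. Summed FPKM was 402197 and 397094 under Control against 426279 and 408390 under siSIRT1, higher in both siSIRT1 libraries. KRT8, KRT18 and VIM were at 1427 FPKM or more in every library and KRT19 at 313 or more, while the ductal keratin KRT7 was low at 2.89 to 4.04 FPKM. Among these PANC-1 markers with EPCAM, KRT18 and KRT19 were higher in siSIRT1, 2 of 6 beside 24% of all tested genes. VIM was lower, 1 of 6 beside 13.1%. KRT18 and KRT19 kept that call in 5 of 10 other processings each and lost it without Control replicate 1 (limma adjusted p = 0.2995 and 0.143) or Control replicate 2 (0.491 and 0.263). VIM kept it in all 10 and lost it without Control replicate 1 (limma adjusted p = 0.0953). KRT8 (log2 fold change 0.25, limma adjusted p = 0.0513) and EPCAM (0.52, limma adjusted p = 0.0555) were not called as reported. KRT8 was called in 5 of the 10 other processings and EPCAM in 1. Markers of immune, endothelial, fibroblast and acinar cells were 7 genes in all. They summed to 7.24 and 7.45 FPKM under Control against 6.27 and 5.25 FPKM under siSIRT1. CD14 and PTPRC made up most of that sum, and each of the other 5 was at 0.75 FPKM or less. PTPRC had no call in any processing. CD14, with a log2 fold change of -0.40 and a limma adjusted p of 0.0613, was not called as reported but was called lower in 6 of the 10 other processings (range 0.00683 to 0.163) and without siSIRT1 replicate 1 (0.0153). The part of these markers in the results was not tested.

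All 10 G1 genes had a mean of at least 1 FPKM and were tested. In siSIRT1, 7 of them were higher at a limma adjusted p under 0.05 (CCND1, CCND3, CCNE2, CDK2, CDK4, CDK6 and CDKN1A), 1 was lower (CDKN1B) and 2 were not called (CCNE1 and RB1). Over the 12191 genes tested, 24% were higher and 13.1% lower by the same call, and the split between directions moved with the scaling, from 2930 higher and 1591 lower without scaling to 2023 and 2053 with median-of-ratios scaling. Under each of the 4 scalings 5 of the 10 were higher, without CCND1 and CDK4. With median-of-ratios scaling that stood beside 16.6% higher over all tested genes. The median log2 fold change was 0.34 over the 10 genes and 0.07 over all tested genes. In 9 of the 10 the Control and siSIRT1 values did not overlap, beside 69% of all tested genes. At a fold above 1.2 and an unadjusted p under 0.001, 4 of the 10 passed (CCND3, CDK2, CDK6 and CDKN1A) beside 18.1% of all tested genes, and the count fell to 2 without siSIRT1 replicate 2. In RNA from a whole culture, more cells in a given phase and more RNA per cell cannot be told apart.

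**Figure D1:**
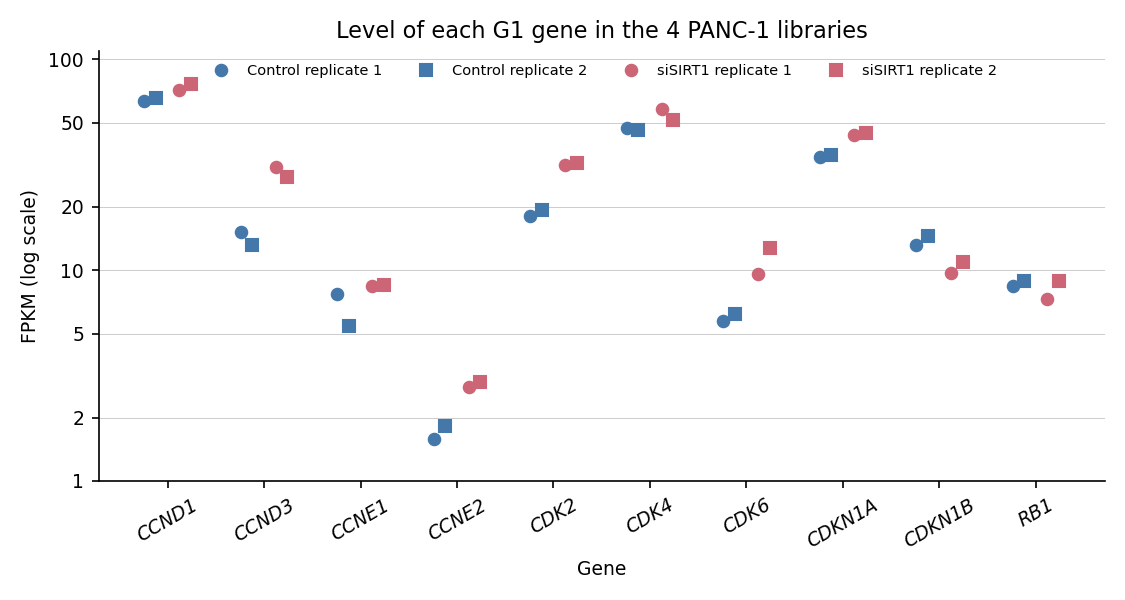
FPKM on a log scale for the 10 G1 genes, with 1 point for each library (blue Control, red siSIRT1, circles replicate 1, squares replicate 2). The siSIRT1 points lie above both Control points for 8 genes, and below them for CDKN1B. For RB1 siSIRT1 replicate 1 lies below both Control points and replicate 2 is level with the upper one.

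By level per transcript length, the order in Control ran from CCND1 (63.30 and 65.71 FPKM) through CDK4, CDKN1A, CDK2, CCND3, CDKN1B, RB1, CCNE1 and CDK6 down to CCNE2 (1.59 and 1.83 FPKM). The ranges of neighbours in that order did not overlap, except for CCND3 with CDKN1B and CCNE1 with CDK6. In siSIRT1 the first 5 places were held by the same genes in the same order. CDK6 moved from the ninth place to the sixth, above CDKN1B, CCNE1 and RB1, and its range overlapped that of CDKN1B there. The range of CCNE1 overlapped that of RB1.

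**Figure D2:**
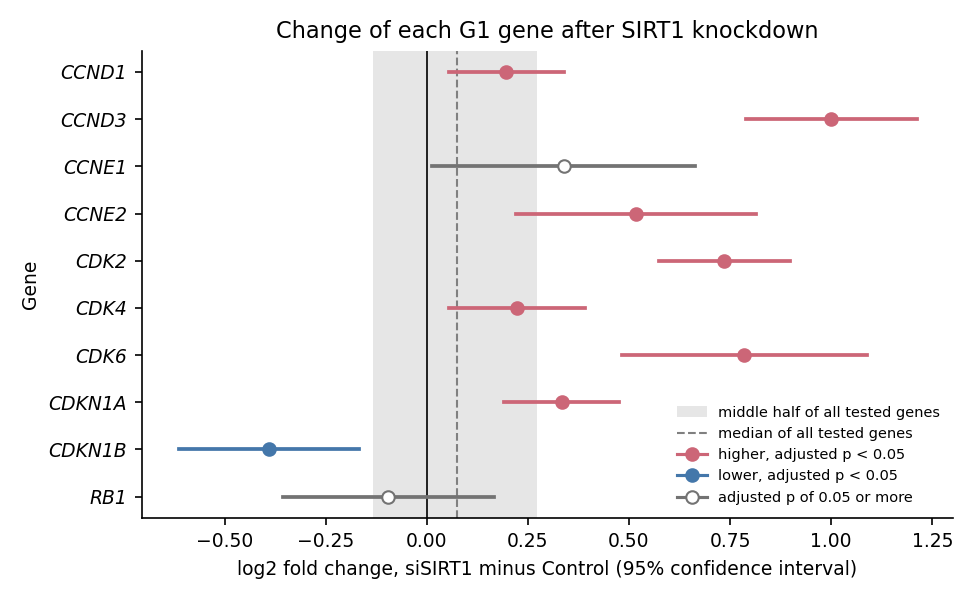
Log2 fold change of each G1 gene, siSIRT1 minus Control, with its 95% confidence interval from limma on log2(FPKM + 1). Filled points passed an adjusted p of 0.05. The grey band is the range from the 25th to the 75th percentile of all tested genes (-0.13 to 0.27), and CCND3, CDK2 and CDK6 have intervals wholly above it.

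CCND3 showed the largest change of the 10. This D cyclin partners CDK4 and CDK6 and is the second most abundant D cyclin of these cells. It was at 15.21 and 13.12 FPKM under Control against 30.75 and 27.84 FPKM under siSIRT1. Both siSIRT1 libraries stood well above both Control libraries. The means of 14.2 ± 1.48 and 29.3 ± 2.06 FPKM (SD, n = 2 each) gave a 2.07-fold ratio, and the log2 fold change was 1.00 ± 0.09 (SE; limma adjusted p = 0.00012). The call held in all 10 other processings and without each library in turn.

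CCND1, the most abundant of the 10, was at 63.30 and 65.71 FPKM under Control against 71.65 and 76.49 FPKM under siSIRT1. The groups did not overlap, but the gap was small beside the level. The ratio of the means was 1.15, with a log2 fold change of 0.20 ± 0.06 (SE; limma adjusted p = 0.0375). This call was lost under each of the 4 scalings, and the limma adjusted p ran from 0.00898 to 0.238 over the 10 processings, of which 2 kept the call. It was also lost without Control replicate 1 (limma adjusted p = 0.284), Control replicate 2 (0.159) or siSIRT1 replicate 2 (0.0823). The third D cyclin, CCND2, was at 0.12 FPKM or less in every library and was not tested. Summed over the D cyclins, the level was 78.6 and 79.0 FPKM under Control against 102 and 104 FPKM under siSIRT1. CCND3 supplied 19.36% and 16.62% of the sum under Control and 30.02% and 26.67% under siSIRT1, a share that no scaling factor of a library can alter.

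CDK6 and CDK4 are the catalytic partners of the D cyclins. CDK6 was at 5.74 and 6.23 FPKM under Control against 9.58 and 12.68 FPKM under siSIRT1. The siSIRT1 libraries were both higher and also lay further apart from each other than the Control libraries did. The group means stood at 5.99 ± 0.35 against 11.1 ± 2.19 FPKM (SD, n = 2 each), a 1.86-fold ratio, with a log2 fold change of 0.79 ± 0.13 (SE; limma adjusted p = 0.00224). The call held in all 10 other processings and without each library.

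CDK4 was at 47.33 and 46.11 FPKM under Control against 58.19 and 51.38 FPKM under siSIRT1. The Control libraries were close together and below both siSIRT1 libraries, of which replicate 1 was the higher. The ratio of the means was 1.17 and the log2 fold change 0.22 ± 0.07 (SE; limma adjusted p = 0.0426). As for CCND1, the call was lost under each of the 4 scalings, and the limma adjusted p ran from 0.00755 to 0.239 over the 10 processings. Leaving out Control replicate 1 (limma adjusted p = 0.149), Control replicate 2 (0.226) or siSIRT1 replicate 1 (0.123) also ended the call. Within a library, CDK6 held 10.8% and 11.9% of the summed level of CDK4 and CDK6 in Control and 14.1% and 19.8% in siSIRT1. CDK4 RNA thus stayed the more abundant of the pair in every library.

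CDK2, the partner of the E cyclins and later of cyclin A, was at 18.14 and 19.35 FPKM under Control against 31.54 and 32.17 FPKM under siSIRT1. Libraries of a group lay close together and the groups far apart. The group means stood at 18.8 ± 0.86 against 31.9 ± 0.45 FPKM (SD, n = 2 each), a 1.70-fold ratio, and the log2 fold change was 0.735 ± 0.07 (SE; limma adjusted p = 0.000153). The call held in all 10 other processings and without each library. CDK2 supplied 25.5% and 27.0% of the summed level of the 3 kinases in Control and 31.8% and 33.4% in siSIRT1.

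CCNE2, the less abundant E cyclin, was at 1.59 and 1.83 FPKM under Control against 2.79 and 2.96 FPKM under siSIRT1, and rested on about 37 to 69 reads a library. The siSIRT1 libraries were higher than both Control libraries. The ratio of the means was 1.68 and the log2 fold change 0.52 ± 0.13 (SE; limma adjusted p = 0.0141), a scale that understates the change of so low a gene and gave 0.72 with a pseudocount of 0.1. The call held in all 10 other processings but not without Control replicate 1 (limma adjusted p = 0.104).

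CCNE1 was at 7.68 and 5.45 FPKM under Control against 8.44 and 8.49 FPKM under siSIRT1. The siSIRT1 libraries were nearly equal, and Control replicate 2 lay well below Control replicate 1, which came near the siSIRT1 level. The log2 fold change was 0.34 ± 0.14 (SE, 95% confidence interval 0.01 to 0.66), and the limma adjusted p of 0.0942 gave no call. The value turned on the Control libraries, since the log2 fold change was 0.55 without Control replicate 1 (limma adjusted p = 0.0222, a call) and 0.125 without Control replicate 2 (0.612). The summed E cyclin level was 9.27 and 7.28 FPKM under Control against 11.2 and 11.5 FPKM under siSIRT1, and the share held by CCNE2 overlapped between the groups.

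The CIP/KIP inhibitors moved in opposite directions. CDKN1A, which encodes p21, was at 34.44 and 35.16 FPKM under Control against 43.64 and 44.61 FPKM under siSIRT1. The libraries of each group were close together and the groups apart. The ratio of the means was 1.27 and the log2 fold change 0.33 ± 0.06 (SE; limma adjusted p = 0.00357), and the call held in all 10 other processings and without each library.

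CDKN1B, which encodes p27, was at 13.18 and 14.47 FPKM under Control against 9.66 and 10.97 FPKM under siSIRT1. It was the only one of the 10 called lower, and both siSIRT1 libraries lay below both Control libraries. In siSIRT1, 74.6% of the Control mean remained, with a log2 fold change of -0.39 ± 0.10 (SE; limma adjusted p = 0.0139). The call was lost without a filter on low values (limma adjusted p = 0.0535, range 0.00241 to 0.0535 over the 10 processings), without Control replicate 2 (0.125) and without siSIRT1 replicate 1 (0.0525).

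CDKN1C, the third CIP/KIP gene and a maternally expressed imprinted gene, was at 7.35 and 7.36 FPKM under Control against 2.91 and 2.07 FPKM under siSIRT1. It fell further than CDKN1B, to 33.9% of the Control mean, with a log2 fold change of -1.27 ± 0.14 (SE; limma adjusted p = 0.000281). The level summed over the 3 genes overlapped between the groups, at 55.0 and 57.0 FPKM under Control against 56.2 and 57.7 FPKM under siSIRT1. The make-up of the sum differed: CDKN1A held 62.7% and 61.7% of it in Control and 77.6% and 77.4% in siSIRT1, while CDKN1B went from 23.98% and 25.39% to 17.19% and 19.03%. Set against CDK2 in the same library, the summed inhibitor RNA level was 3.03 and 2.95 times that of CDK2 in Control and 1.78 and 1.79 times in siSIRT1. For CDKN1B alone the ratio to CDK2 went from 0.727 and 0.748 to 0.306 and 0.341. No test was run on these shares and ratios, which are given as descriptions of RNA and not of protein. An exact permutation test of 2 against 2 libraries gives no two-sided p below 0.333.

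**Figure D3:**
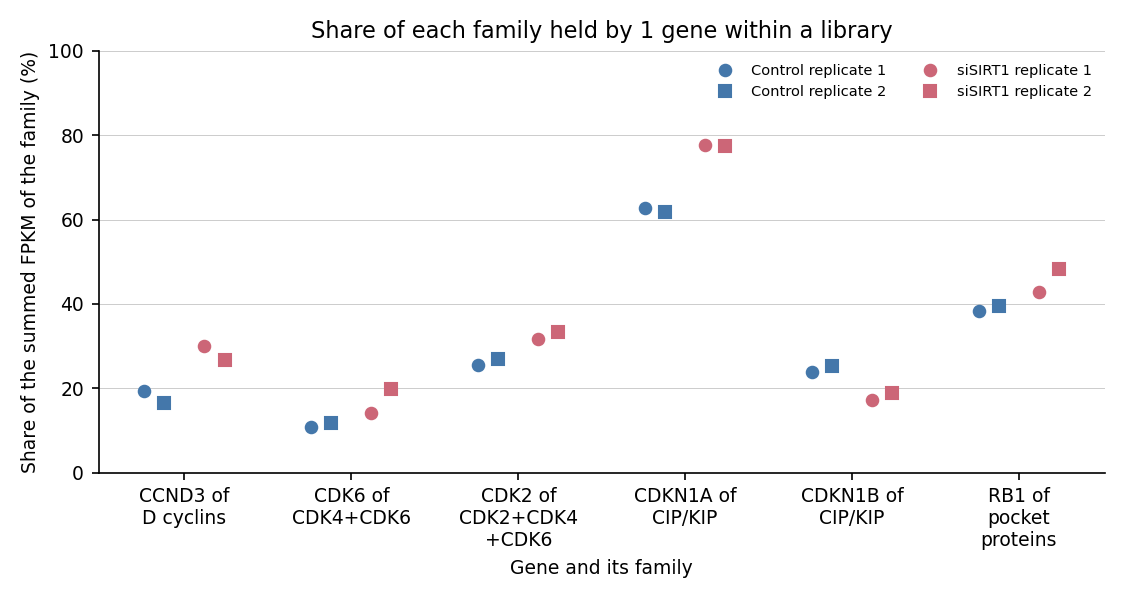
Share of the summed FPKM of a family held by 1 gene, in percent, with 1 point for each library (blue Control, red siSIRT1, circles replicate 1, squares replicate 2). Both siSIRT1 points lie above both Control points for CCND3, CDK6, CDK2, CDKN1A and RB1, and below them for CDKN1B (17.19% and 19.03% against 23.98% and 25.39%).

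RB1, the pocket protein that D and E cyclin kinases phosphorylate, was at 8.43 and 8.92 FPKM under Control against 7.27 and 8.92 FPKM under siSIRT1. The groups overlapped, with siSIRT1 replicate 2 equal to Control replicate 2. The log2 fold change was -0.095 ± 0.115 (SE, 95% confidence interval -0.36 to 0.17; limma adjusted p = 0.557), and no processing gave a call. RBL2, which encodes the pocket protein p130 that is bound to E2F4 in resting cells, was at 9.61 and 9.97 FPKM under Control against 6.0 and 6.01 FPKM under siSIRT1, a log2 fold change of -0.62 ± 0.10 (SE; limma adjusted p = 0.00148). RBL1, the third pocket gene, had a log2 fold change of -0.05 and no call. RB1 held a larger share of the pocket gene level in siSIRT1, 42.7% and 48.2% against 38.3% and 39.5% in Control, without a call on its own level. The pocket sum was lower in siSIRT1, at 17.0 and 18.5 FPKM against 22.0 and 22.6 FPKM.

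The genes that act on these members were read from a list of 37 other G1 and RB-E2F genes, of which 35 had values and 34 were tested. In siSIRT1, 8 were higher and 4 lower, and 22 were not called, with a median log2 fold change of 0.11. The shares of 23.5% higher and 11.8% lower were near the 24% and 13.1% of all tested genes, so the count is no result about this list, and its genes are given for their roles. CDKN2A and CDKN2B were not analysed here. The INK4 gene CDKN2C, whose product p18 inhibits CDK4 and CDK6, was at 19.11 and 20.43 FPKM under Control against 35.39 and 35.65 FPKM under siSIRT1 (log2 fold change 0.815 ± 0.07, SE; limma adjusted p = 8.42e-05). CDKN2D, the other INK4 gene tested, had a log2 fold change of 0.42 and a limma adjusted p of 0.0517, and was called in 1 of the 10 other processings (range 0.0147 to 0.154) and without siSIRT1 replicate 2 (0.00858). CDC25A, the phosphatase that removes inhibitory phosphates from CDK2, showed the largest rise of the list, from 1.67 and 1.56 FPKM to 4.74 and 5.36 FPKM (log2 fold change 1.21 ± 0.13, SE; limma adjusted p = 0.000219). CCNH, the cyclin of the CDK-activating kinase, fell from 16.04 and 16.08 FPKM to 7.83 and 7.90 FPKM (log2 fold change -0.94 ± 0.085, SE; limma adjusted p = 0.000107), while its partners CDK7 and MNAT1 had log2 fold changes of 0.17 and 0.27 and no call. FBXW7, which marks cyclin E for destruction, was at 3.46 and 3.68 FPKM under Control against 2.39 and 2.67 FPKM under siSIRT1 (log2 fold change -0.37 ± 0.12, SE; limma adjusted p = 0.0437). Of the fits without 1 library, the FBXW7 call was kept only without siSIRT1 replicate 2, and the limma adjusted p was 0.140 without Control replicate 1, 0.225 without Control replicate 2 and 0.112 without siSIRT1 replicate 1. Without a filter on low values it was 0.0788, the highest of a range from 0.0151 over the 10 processings. None of CCNH, CDKN1C, RBL2 and FBXW7 held a site for either seed of the siRNA in the 3′ UTR.

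Of the E2F factors, 4 of 8 were higher and 0 lower by limma, beside 24% higher and 13.1% lower over all tested genes. None was lower at an unadjusted limma p under 0.05 either. E2F1, an activator held by RB1, went from 12.65 and 12.09 FPKM to 18.42 and 17.46 FPKM (log2 fold change 0.50 ± 0.08, SE; limma adjusted p = 0.00178). E2F2, a second activator, was at 3.21 and 3.23 FPKM under Control against 5.60 and 5.75 FPKM under siSIRT1, with a log2 fold change of 0.66. The repressor E2F4 had a log2 fold change of 0.465, with values of 24.67 and 25.02 FPKM under Control against 34.69 and 34.65 FPKM under siSIRT1. In these 3 genes the libraries of a group lay close together. E2F8, an atypical repressor that is itself switched on at the entry to S phase, had a log2 fold change of 0.55, from 2.27 and 2.18 FPKM to 3.78 and 3.69 FPKM, and lost its call without Control replicate 2 (limma adjusted p = 0.0520). TFDP1, the DNA-binding partner of the E2F factors, rose from 19.65 and 19.62 FPKM to 33.27 and 31.61 FPKM (log2 fold change 0.70 ± 0.07, SE; limma adjusted p = 0.000176). MYBL2, which replaces the repressor proteins on the MuvB complex in S phase, rose from 38.91 and 36.70 FPKM to 65.50 and 63.04 FPKM (log2 fold change 0.75 ± 0.06, SE; limma adjusted p = 8.01e-05). The other 5 MuvB and DREAM genes had no call as reported. Of these, LIN52 (log2 fold change 0.39, limma adjusted p = 0.0658) and RBBP4 (0.185, limma adjusted p = 0.0787) were each called in 1 of the 10 other processings. MYC, which drives transcription of D cyclins and CDK4, had a log2 fold change of -0.12 with a limma adjusted p of 0.196, and was called lower in 4 of the 10 other processings (range 0.0283 to 0.292).

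Genes of S phase were read from a list of 41 that is widely used to score that phase, without CCNE2 and E2F8. All 41 were tested, and 25 were higher and 0 lower in siSIRT1 at a limma adjusted p under 0.05, with a median log2 fold change of 0.36. That is 61.0% higher, beside 24% of all tested genes, and with median-of-ratios scaling it was 51.2% beside 16.6%. At an unadjusted p under 0.05 the count of lower genes was also 0. Without Control replicate 1 fewer S-phase genes were called higher, as were fewer of all tested genes. GINS2, a subunit of the replicative helicase, rose most, from a mean of 4.58 ± 0.04 to 10.46 ± 0.64 FPKM, SD and n = 2 each (log2 fold change 1.04 ± 0.10, SE; limma adjusted p = 0.000169). FEN1, which trims Okazaki fragments, had a log2 fold change of 0.87, from 16.85 and 17.93 FPKM to 31.40 and 33.78 FPKM. RPA2, a subunit of the single-strand binding complex, had a log2 fold change of 0.77. The median change of the S-phase list and that of the 10 G1 genes lay close together, at 0.36 and 0.34. Both lists held both directions, with 37 positive and 4 negative log2 fold changes for S phase and 8 and 2 for G1. Of the cyclins and kinase that act after G1, CCNA2 (log2 fold change 0.43; limma adjusted p = 0.00399) and CDK1 (log2 fold change 0.49; limma adjusted p = 0.00207) rose, while the mitotic cyclins CCNB1 and CCNB2 had log2 fold changes of 0.15 and 0.145 and no call, of which CCNB1 was called in 1 of the 10 other processings (limma adjusted p from 0.0451 to 0.711). All of these changes come from the same 4 libraries, so the lists are not independent of each other. They are RNA levels and do not count cells in S phase. In the study's own EdU labeling, its measure of proliferation, the labeled share of PANC-1 cells was much lower after SIRT1 knockdown. How that result relates to the RNA levels here was not tested.

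**Figure D4:**
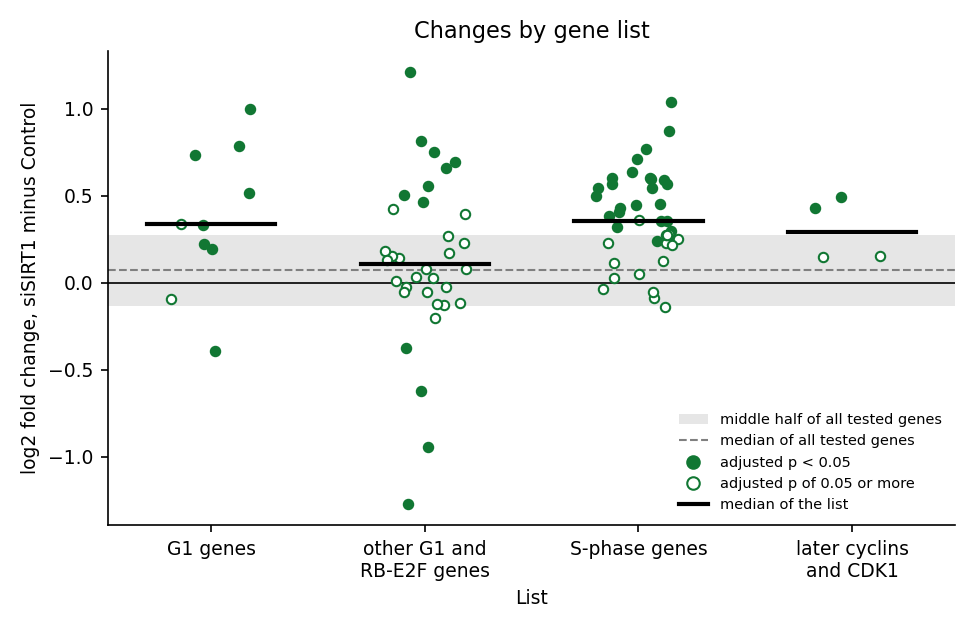
Log2 fold change, siSIRT1 minus Control, of each tested gene of 4 lists, filled where the limma adjusted p was under 0.05, with a black bar at the median of the list. The grey band spans the 25th to the 75th percentile of all tested genes. The medians were 0.34 for the 10 G1 genes, 0.11 for the other G1 and RB-E2F genes, 0.36 for the S-phase genes and 0.29 for the later cyclins and CDK1.

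Promoter windows, from 250 bases before to 50 bases after a transcript start, were taken from RefSeq on GRCh38.p14 and searched on both strands for 4 spellings of the E2F site, TTTCCCGC, TTTCGCGC, TTTGCCGC and TTTGGCGC, and for the GC box GGGCGG. An E2F spelling can share bases with another spelling or with a GC box. Of the 10 G1 genes, 7 were in the table, and CCND1, CCNE2 and CDK2 were not. The only window listed for RB1 lies 172699 bases inside the gene from its annotated start, so the start of RB1 was not searched. The window of CDKN1A lies 2251 bases from the annotated start of that gene, and the nearest window of CCND3 1347 bases. None of the 7, RB1 included, held an E2F spelling in a listed window, against 6.81% of 9984 tested genes with a window. At that share 0 of 7 is no result about these genes. A spelling was in 8 of 29 of the other G1 and RB-E2F genes and 19 of 32 of the S-phase genes. The GC box was in 6 of the 7, all but RB1, and in 77.8% of the tested genes with a window. Over all 35116 windows of this length, 3.31% held an E2F spelling and 45% a GC box. Windows are printed for CCND3 and CDKN1B, the G1 genes with the largest rise and the only called fall, with GC boxes in capitals, and for E2F1 and CDC25A, with E2F spellings in capitals.
CCND3, chr6:41941759-41942058, minus strand: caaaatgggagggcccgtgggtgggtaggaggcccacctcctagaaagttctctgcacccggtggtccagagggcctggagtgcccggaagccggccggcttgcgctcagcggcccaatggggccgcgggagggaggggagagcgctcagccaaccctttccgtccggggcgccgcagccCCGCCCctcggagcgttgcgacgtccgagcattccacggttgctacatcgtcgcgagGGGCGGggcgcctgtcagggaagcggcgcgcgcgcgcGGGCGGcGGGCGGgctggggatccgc
CDKN1B, chr12:12717118-12717417, plus strand: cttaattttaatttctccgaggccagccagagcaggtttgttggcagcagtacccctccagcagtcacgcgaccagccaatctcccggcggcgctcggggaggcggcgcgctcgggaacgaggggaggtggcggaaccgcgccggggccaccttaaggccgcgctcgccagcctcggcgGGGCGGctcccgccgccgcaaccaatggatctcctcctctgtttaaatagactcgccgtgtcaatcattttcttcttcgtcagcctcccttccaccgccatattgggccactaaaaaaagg
E2F1, chr20:33686336-33686635, minus strand: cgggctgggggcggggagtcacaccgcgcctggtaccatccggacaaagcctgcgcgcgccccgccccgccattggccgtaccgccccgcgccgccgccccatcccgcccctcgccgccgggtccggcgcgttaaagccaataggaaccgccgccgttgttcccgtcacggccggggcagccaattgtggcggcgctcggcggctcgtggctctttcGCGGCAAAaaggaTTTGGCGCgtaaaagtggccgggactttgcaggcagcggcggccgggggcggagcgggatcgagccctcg
CDC25A, chr3:48188368-48188667, minus strand: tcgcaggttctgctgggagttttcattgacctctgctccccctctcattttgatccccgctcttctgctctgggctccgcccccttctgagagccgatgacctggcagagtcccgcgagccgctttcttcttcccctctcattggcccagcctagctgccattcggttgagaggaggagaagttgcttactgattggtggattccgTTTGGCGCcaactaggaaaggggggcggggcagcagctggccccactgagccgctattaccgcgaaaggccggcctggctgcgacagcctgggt
The CCND3 window belongs to an inner transcript start, 108227 bases from the annotated start of the gene, and is 1 of 3 that the table lists. It held 4 GC boxes, 2 of them before the start and 2 after it, and the CDKN1B window held 1. Of the other CCND3 windows, the one 1347 bases from the annotated start held 5 GC boxes. The one 110830 bases from that start held 0. E2F1 held 2 E2F spellings, 33 and 20 bases before the start, and CDC25A held 1, 44 bases before it. A match describes the letters of a window and says nothing of binding, and a window without a match lacks these spellings only.

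Over the 10 processings other than leaving out a library, CCND3, CCNE2, CDK2, CDK6 and CDKN1A kept their call in all 10, CDKN1B in 9, CCND1 and CDK4 in 2, CCNE1 gained a call in 1 and RB1 in none. CCND3, CDK2, CDK6 and CDKN1A also kept it without each library in turn.

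**Figure D5:**
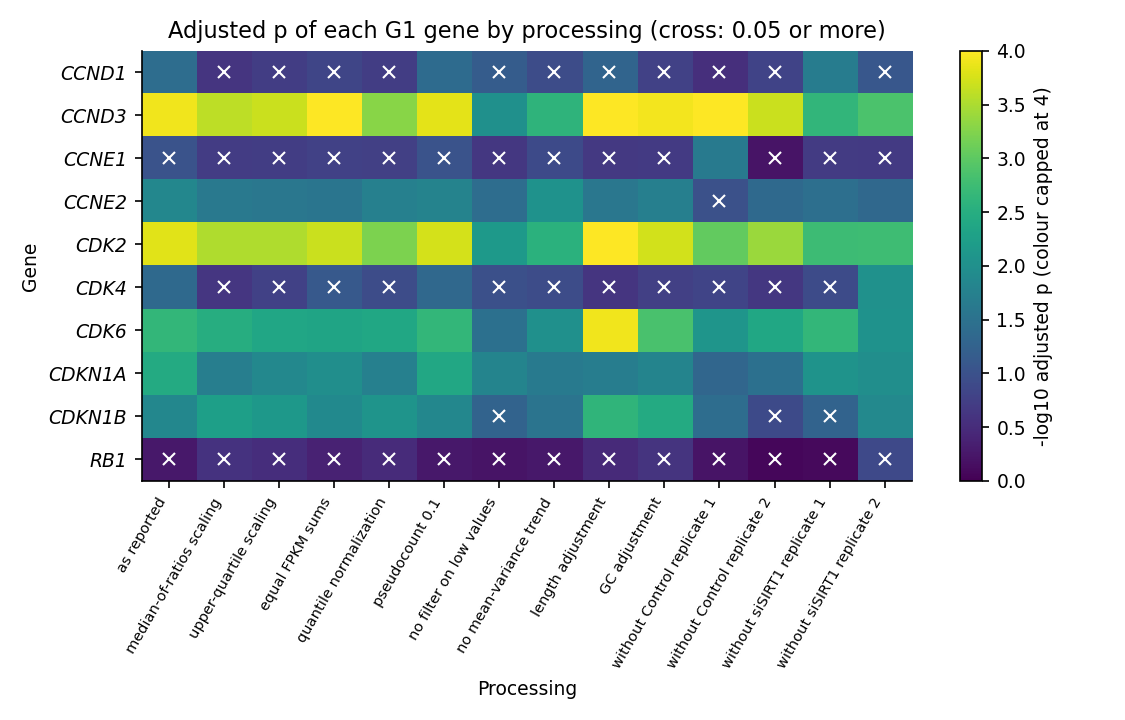
Adjusted p (limma, Benjamini-Hochberg) of the 10 G1 genes as reported and under 13 other processings, 4 of which leave out a library (the fit with the replicate number as a block is not drawn), coloured by -log10 of the adjusted p, with a cross where it was 0.05 or more. The rows of CCND3, CDK2, CDK6 and CDKN1A hold no cross, that of RB1 holds one in every column, and those of CCND1 and CDK4 hold them under every scaling.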

How the data were processed

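RNA from PANC-1 cells was measured by RNA-seq in 4 libraries, 2 Control and 2 siSIRT1, grouped by the treatment in the labels. The authors deposited 1 table of FPKM values for each library, rounded to 2 decimals, for 16878 genes. The submitters' processing notes name Bowtie2, HISAT, RSEM and ChIPseeker without versions or roles. The genome build, annotation, strand setting and handling of shared reads are not given in the sources used here. The FPKM tables carry no counts. Depths were estimated from the steps between low values of single-exon, single-transcript genes, and reads per gene are approximate and cover counting error only.

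The 12191 genes that averaged 1 FPKM or more over the libraries were fitted on the log2(FPKM + 1) scale with limma 3.58.1 in R 4.3.3, using lmFit and then eBayes with its mean-variance trend. Tests were two-sided and adjusted by the Benjamini-Hochberg method over all 12191 genes, with a threshold of 0.05. Fold changes are on this log2(FPKM + 1) scale, which understates changes of low genes. Processings tried were 4 scalings (median-of-ratios, upper-quartile, equal FPKM sums, quantile), a pseudocount of 0.1, no filter, no trend, the replicate number as a block, and leaving out each library. Removal of each library's trend on transcript length or GC content was added after the data were seen.

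The members and lists were chosen with earlier results of these data known. Named genes are SIRT1, the 10 G1 genes in every library, the called or untested genes of the other G1 and RB-E2F list, the 4 largest called changes of the S-phase list (1 is not reported here), and the 4 later cyclin and CDK genes. CDK7, MNAT1, CDKN2D, RBL1, MYC, LIN52 and RBBP4 were named after their values were seen. 3′ UTRs came from GENCODE release 44 on GRCh37 and promoter windows from RefSeq on GRCh38.p14. No protein sequence was used here.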

Additional observations from a re-analysis of the deposited data

How the results depend on the processing

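Without a filter on low values, 0 of the 10 G1 genes were called lower by limma (1 at an unadjusted p under 0.05) and 2 passed a fold of 1.2 with an unadjusted p under 0.001, and without the mean-variance trend 2 passed. Leaving out 1 library at a time gave 0 to 1 G1 genes lower (0 without Control replicate 2 or siSIRT1 replicate 1), 2 to 3 past the fold and unadjusted p (2 without siSIRT1 replicate 2), 16 to 23 S-phase genes higher (16 without Control replicate 1) and 2691 to 4608 genes called in all (2691 without Control replicate 2, 2744 without Control replicate 1). The log2 fold change of RB1 ran from -0.226 to 0.037 over these fits and turned positive without siSIRT1 replicate 1, with no call in any. Such fits leave 1 library in a group, which is taken to vary like the others. The labels number the libraries 1 and 2 in each group. Same-numbered libraries deviated together with a correlation of 0.123 over genes, from only 2 pairs, and the labels do not say that a number marks a shared culture or day. With the replicate block, 8 of the 10 G1 genes were higher and 1 lower. CCNE1 gained a call there (limma adjusted p = 0.0325, range 0.0325 to 0.226 over the 10 processings). In the same fit 3485 of all tested genes were higher and 1908 lower, against 2930 and 1591 without the block. That is 5393 genes called in all, against 4521. With 2 libraries a group and 8690000 to 9120000 reads each, changes as small as those of CCND1 and CDK4 passed or failed with the processing.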
